A study of Mus musculus with 18 samples.

Results

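The 50 genes described here encode the Toll-like receptor 4 (TLR4) pathway, through which macrophages sense bacterial lipopolysaccharide (LPS), and the NF-kB transcription factors with their inhibitors and feedback genes. They were taken as a fixed list of mouse gene symbols and are 50 of the 55401 genes counted. The rule holds no measured value, but the list was chosen with earlier results of these data known, and no test of the list was made. The first class of 27 members runs from the receptor to the kinases. It holds 3 genes of the receptor complex, 4 adaptors, and 14 kinases and ubiquitin enzymes. Traf3, Tbk1 and the interferon regulatory factors Irf3 and Irf5 (TRIF arm and IRFs) form another 4, beside 2 inhibitors that act close to the receptor. The other 23 members form the NF-kB class: 5 subunits, 6 genes of the IkB family, and 12 feedback and target genes.

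The study measured RNA in 18 libraries, in 6 groups of 3, around Smim30, which encodes a small membrane protein. Mut and WT were peritoneal macrophages of SMIM30-Mut and wild-type mice of strain C57BL/6J. Mut-SMIM30-OE and Mut-Control were macrophages of the mutant mice too, which received an adenovirus for SMIM30 overexpression or a control adenovirus 6 h after seeding and kept it for 24 h. siSMIM30 and siControl were cells of the established line IC-21, which derives from transformed peritoneal macrophages of the mouse, after 24 h with a transfected siRNA against SMIM30 or with control siRNA. Every group was given LPS at 5 ng/ml for 6 h at the end. No group without LPS was analysed here, so the response to LPS itself was not measured. Neither the mutated bases nor the insert of the virus is stated, nor whether the libraries of a group came from separate mice or cultures, and the p-values below measure only the spread between these libraries.

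TLR4 binds LPS together with MD-2 (encoded by Ly96), after CD14 has handed it over. The adaptors MyD88 and TIRAP pass the signal to IRAK kinases and the ubiquitin ligase TRAF6, which switch on TAK1 and the IKK complex, while TRIF (Ticam1) and TRAM (Ticam2) start another arm that leads to TBK1 and IRF3. IKK marks IkB proteins for destruction, which lets NF-kB dimers enter the nucleus. Many NF-kB targets, among them IkB-alpha (Nfkbia) and the deubiquitinase A20 (Tnfaip3), then close a negative feedback loop, which is a known feature of LPS-treated macrophages.

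The libraries held 6855245 to 13456857 assigned read pairs, and 3 counts, the floor used for detection, correspond to 0.223 to 0.438 CPM (counts scaled to a common library size of 1e6). All 50 members passed the filter on low counts in every comparison, and the lowest member count was 30, for Ly96 in an siSMIM30 library. CPM values carry a TMM scaling factor (trimmed mean of M-values), set over the 18 libraries. Smim30, listed as 2610001J05Rik (chr6:13867735-13871518, minus strand, GRCm38), measured 50.4, 62.1 and 60.6 CPM in Mut and 51.5, 60.5 and 59.2 CPM in WT. It stood at 121% of Mut-Control in Mut-SMIM30-OE (adjusted p = 0.0052) and at 51.0% of siControl in siSMIM30 (adjusted p = 6.17e-08, edgeR). Mut-SMIM30-OE, at 60.04, 61.3 and 64.6 CPM, lay above Mut-Control, at 53.2, 49.3 and 51.0 CPM, but overlapped Mut, and Mut-Control stood at 87.9% of Mut (adjusted p = 0.0418). The RNA level thus fits the siRNA labels, shows a higher level with the Smim30 virus against the control virus only, and does not check the mutation, for which the log2 difference was 0.01. Macrophage markers added up to 11685 to 12428 CPM in Mut, 12837.5 to 14122.5 CPM in WT, and 2042 to 2208 CPM in siSMIM30. That sum rests mostly on Lyz2, with 868653 counts over the 18 libraries against 4268 for Fcgr1. The list also holds the member Cd14. Of its 8 genes, 2 were higher and 1 lower in Mut than in WT (median log2 fold change 0.01). Of 11 large peritoneal macrophage markers, Gata6, Timd4 and Prg4 were at 0 in the 6 IC-21 libraries. Against WT, 7 of 9 tested markers of this list were lower in siControl, 1 was higher and 1 did not pass.

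Promoter sequences were available for 39 of the 50 members, from RefSeq on GRCm38.p6, and the 250 bases before each transcription start were searched on both strands. A match to the NF-kB consensus site (the kB consensus) lay in 9 of 18 NF-kB-class promoters and in 2 of 21 promoters of the receptor-to-kinase class (9.52%), against 4.46% of 27025 genes. The motif GGAANTTCC, which overlaps some of those matches, lay in 3 of 18, 1 of 21 and 0.944% of genes. The 5 promoters below belong to NF-kB-class members that passed a test in the comparisons that follow, and were chosen with those values in view. They run 5′ to 3′ on the gene's strand and end at the base before the start. Capitals mark bases that match either motif. A match is not evidence of binding. Other NF-kB-class members that passed when Smim30 was altered are not printed. Of these, Traf1, Tnfaip2, Ikbke and Gadd45b had a match to neither motif, and Nfkb1, Nfkbiz and Ripk2 had no promoter sequence.
Nfkbia, chr12:55492648-55492897, minus strand: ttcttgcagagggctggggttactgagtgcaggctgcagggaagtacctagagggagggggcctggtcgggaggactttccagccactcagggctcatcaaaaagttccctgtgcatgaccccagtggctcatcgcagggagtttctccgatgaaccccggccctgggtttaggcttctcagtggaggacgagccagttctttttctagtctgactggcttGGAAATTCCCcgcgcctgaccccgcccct
Tnfaip3, chr10:19015411-19015660, minus strand: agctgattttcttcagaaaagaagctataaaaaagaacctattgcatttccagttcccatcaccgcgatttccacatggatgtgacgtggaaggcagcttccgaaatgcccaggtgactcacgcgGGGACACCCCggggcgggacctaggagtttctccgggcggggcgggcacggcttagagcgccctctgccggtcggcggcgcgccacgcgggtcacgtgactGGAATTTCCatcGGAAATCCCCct
Rel, chr11:23770970-23771219, minus strand: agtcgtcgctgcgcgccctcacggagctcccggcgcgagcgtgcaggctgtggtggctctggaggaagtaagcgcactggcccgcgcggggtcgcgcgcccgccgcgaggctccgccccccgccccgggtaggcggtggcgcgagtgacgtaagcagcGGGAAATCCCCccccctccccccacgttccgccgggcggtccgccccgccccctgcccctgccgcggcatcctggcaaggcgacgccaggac
Tnip1, chr11:54962941-54963190, minus strand: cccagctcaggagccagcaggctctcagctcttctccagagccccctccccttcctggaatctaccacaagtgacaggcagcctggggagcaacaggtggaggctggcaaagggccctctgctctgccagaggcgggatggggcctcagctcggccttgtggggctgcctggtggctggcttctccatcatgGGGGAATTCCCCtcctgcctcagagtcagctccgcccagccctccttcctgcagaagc
Icam1, chr9:21015690-21015939, plus strand: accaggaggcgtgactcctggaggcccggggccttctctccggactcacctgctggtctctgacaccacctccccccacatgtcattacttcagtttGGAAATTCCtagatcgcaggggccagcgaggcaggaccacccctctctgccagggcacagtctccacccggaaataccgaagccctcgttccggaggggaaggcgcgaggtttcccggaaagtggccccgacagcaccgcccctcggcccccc
Among the printed promoters, the match nearest to the RefSeq start was in Tnfaip3, 12 to 3 bases before it. That of Nfkbia lay 29 to 20 bases before its start. The Tnfaip3 gene as counted reaches chr10:19015657, so its printed window lies largely within that gene. Another Tnfaip3 window, chr10:19011964-19012213, held no match. Rel and Tnip1 carried overlapping matches, at 92 to 82 and 58 to 47 bases before the start. Icam1 had no kB consensus match in this window and a single GGAANTTCC match, 153 to 145 bases before the start.

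Levels of different members were compared per length, as FPKM, the TMM-scaled CPM divided by the counted exon length in kilobases and averaged over a group. In Mut and WT the LPS co-receptor Cd14 led the list, with 643 FPKM in Mut and 492 FPKM in WT. It was followed by Tnfaip2, a TNF-induced gene, with 490.4 FPKM in Mut and 459 FPKM in WT, and by Nfkbia with 385 FPKM in Mut and 353 FPKM in WT. At the other end, the kinase Mapk8 (JNK1) had 1.77 FPKM in Mut and 1.71 FPKM in WT. The NF-kB class sat above the receptor-to-kinase class in every group, with a median member at 57.8 against 19.4 FPKM in Mut and at 24.0 against 13.5 FPKM in siControl. With virus, Tnfaip2 and Nfkbia led instead, at 601 and 496 FPKM in Mut-SMIM30-OE and at 644 and 516 FPKM in Mut-Control, where Cd14 had 197 FPKM in Mut-SMIM30-OE and 207 FPKM in Mut-Control. In IC-21 cells Nfkbia led, at 169.8 FPKM in siSMIM30 and 154 FPKM in siControl, and Tnip3, an A20-binding inhibitor of NF-kB, was lowest, at 2.29 FPKM in siSMIM30 and 2.01 FPKM in siControl.

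**Figure D1:**
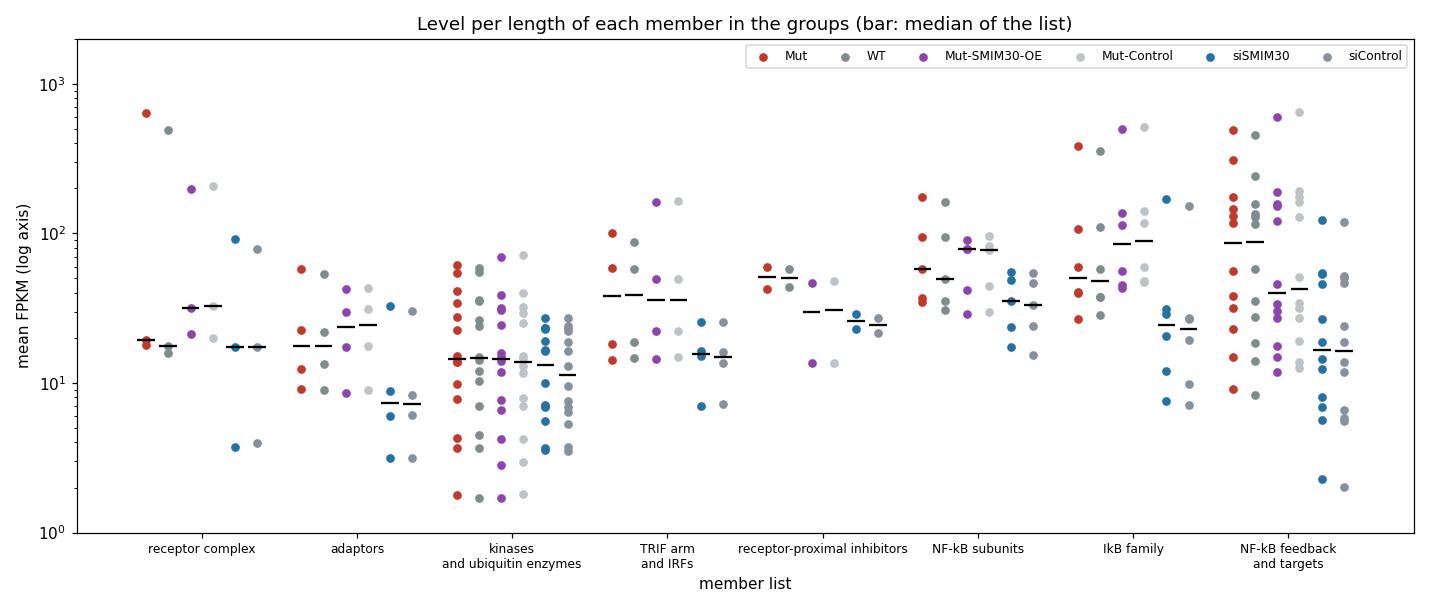
Mean FPKM of each member (points, log axis) by role and group, with the median of each role as a bar. Cd14, the highest point of the receptor complex, stands at 643 FPKM in Mut and 78.6 FPKM in siControl, and the NF-kB feedback genes reach 644 FPKM (Tnfaip2 in Mut-Control).

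Mut macrophages were set against WT macrophages to ask what the Smim30 mutation does to the LPS-treated pathway. In Mut 9 members were higher and none was lower. The changes were between 1.12-fold and 1.30-fold. The members were Cd14 and Tlr4 of the receptor complex, Tab2, Irf5, the NF-kB subunit Nfkb1, and the feedback and target genes Icam1, Traf1, Tnip1 and Ripk2. In counts, 9 of 50 members rose and 0 fell in edgeR's quasi-likelihood test at an adjusted p under 0.05, where 6.30% of 12500 genes tested passed (3.68% higher, 2.62% lower). No member was lower at an unadjusted p under 0.05 or by DESeq2 or limma-voom either, and 15 were higher at an unadjusted p under 0.05. Such a p, in either direction, was found for 2246 of 12500 genes. Of the 27 receptor-to-kinase members 4 rose, and of the 23 NF-kB members 5 rose. The median log2 fold change was 0.04 over the members, 0.01 in the receptor-to-kinase class, 0.10 in the NF-kB class and -0.01 over all genes tested.

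In the receptor complex, Cd14 (ENSMUSG00000051439.7, chr18:36725067-36726798, minus strand) measured 1156, 1057 and 1127 CPM in Mut, against 795, 882 and 880.3 CPM in WT. All Mut libraries lay above all WT libraries, and Cd14 rose 1.30-fold (log2 0.38 ± 0.05 SE, adjusted p = 1.8e-06). Tlr4 itself (ENSMUSG00000039005.13, chr4:66827584-66930284, plus strand) measured 116, 106 and 101 CPM in Mut and 84.7, 90.4 and 89.6 CPM in WT. Its groups were apart as well, and it rose 1.21-fold (log2 0.27 ± 0.06 SE, adjusted p = 0.00562). Ly96, the LPS-binding partner of TLR4, did not pass: it averaged 18.3 ± 3.27 CPM in Mut and 18.1 ± 1.60 CPM in WT (SD, n = 3 each), with the libraries intermixed.

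None of the 4 adaptors passed, also not at an unadjusted p under 0.05 or by DESeq2 or limma-voom. Myd88, the adaptor of the first arm, had a log2 fold change of 0.10 (adjusted p = 0.336), Ticam1 one of 0.02 (adjusted p = 0.912) and Ticam2 one of -0.12 (adjusted p = 0.466). Of the 14 kinases and ubiquitin enzymes 1 rose, Tab2, a TAK1-binding subunit, which measured 254, 256 and 248 CPM in Mut and 211, 218 and 235 CPM in WT (1.13-fold, adjusted p = 0.0237). The ubiquitin ligase Traf6 had a slightly larger difference that did not pass, with 109 ± 8.48 CPM in Mut and 94.3 ± 4.07 CPM in WT (SD, n = 3 each; log2 0.20, adjusted p = 0.0638). Ikbkb, the catalytic IKK subunit, was at 0.15 (adjusted p = 0.128) and Irak1 at -0.05 (adjusted p = 0.73) on the log2 scale. In the TRIF arm and IRFs, Irf5, a factor that drives inflammatory cytokine genes, measured 308, 280.4 and 288 CPM in Mut against 241, 261 and 265 CPM in WT and rose 1.13-fold (adjusted p = 0.0247). The IRAK inhibitor Irak3 (IRAK-M) showed a log2 difference of 0.04 (adjusted p = 0.797).

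Among the NF-kB subunits, Nfkb1 (ENSMUSG00000028163.17, chr3:135584655-135691547, minus strand), which encodes p105 and p50, measured 721, 692 and 679 CPM in Mut and 592, 589.8 and 604 CPM in WT. The lowest Mut library lay above the highest WT library, and it rose 1.16-fold (log2 0.22 ± 0.04 SE, adjusted p = 0.00185). Rela, the p65 subunit, averaged 292 ± 13.3 CPM in Mut and 290.3 ± 2.88 CPM in WT (adjusted p = 0.989), and Rel had a log2 fold change of 0.15 (adjusted p = 0.13). None of the 6 IkB family members passed with DESeq2, limma-voom or edgeR's fit of the Mut and WT libraries, and 1 had an unadjusted p under 0.05. That was Nfkbia, which had 620.0 ± 11.6 CPM in Mut and 569 ± 19.3 CPM in WT, with no overlap between the libraries but an adjusted p of 0.146. With all 18 libraries in 1 edgeR fit, Nfkbia passed (adjusted p = 0.0487).

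Of the 12 feedback and target genes 4 rose. Icam1 (ENSMUSG00000037405.8, chr9:21015985-21028817, plus strand), an adhesion molecule and NF-kB target whose promoter is printed above, measured 1393, 1318 and 1362 CPM in Mut and 1022, 1061 and 1077 CPM in WT, a 1.28-fold rise (log2 0.36 ± 0.04 SE, adjusted p = 1.23e-06). Traf1, a signalling adaptor of the TNF receptor family, measured 296, 271 and 277 CPM in Mut and 237, 254 and 235 CPM in WT (1.16-fold, adjusted p = 0.00934). These libraries did not overlap in either gene. Tnip1, an A20-binding inhibitor, measured 613, 634 and 625 CPM in Mut against 532, 563 and 563 CPM in WT (1.12-fold, adjusted p = 0.0205). Ripk2, the kinase of NOD receptors, measured 73.5, 59.9 and 60.5 CPM in Mut and 48.9, 56.5 and 50.6 CPM in WT (1.23-fold, adjusted p = 0.0234), with Mut replicate 1 well above the other Mut libraries. Tnfaip3 had a log2 fold change of 0.11 that did not pass (adjusted p = 0.173). Counting libraries alone, 17 members had every Mut library above every WT library and 3 had every Mut library below, where 12.1% and 9.79% of all genes tested did so.

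Some members passed only in other edgeR settings. Traf6 did so without a composition factor (adjusted p = 0.0481), with all 18 libraries in 1 fit (0.00981) and without Mut replicate 3 (0.0176). Rel and Ikbkb passed with all 18 libraries and without Mut replicate 3 (adjusted p of 0.007 to 0.0341), and Nfkbia with all 18 libraries. The calls of Cd14, Tlr4, Nfkb1 and Icam1 held in all 15 alternative settings and left-out libraries. Those of Tab2, Irf5, Tnip1, Traf1 and Ripk2 were each lost when certain libraries were left out, with adjusted p up to 0.178 (Ripk2 without Mut replicate 1), and 5 members remained called without Mut replicate 1 or without WT replicate 1. Other cell markers moved with the groups: 2 of 4 tested dendritic cell markers were higher in Mut (the list added up to 29.3 to 37.2 CPM in Mut and 14.9 to 17.1 CPM in WT, with none of its 8 genes at 0), and 1 of 5 B cell markers was lower (74.0 to 77.1 CPM in Mut, 101 to 112 CPM in WT, none at 0). Of 8 tested large peritoneal macrophage markers 2 passed as lower in Mut (median log2 fold change of the 8, -0.46). In 5 of the 8 every Mut library lay below every WT library. The sum of the list was 2589 to 2775 CPM in Mut and 2640 to 2821 CPM in WT. It rests mostly on Cd9 and F10, with 116595 and 83705 counts over the 18 libraries, against 456 for Gata6. In the same way Cd22 holds most of the B cell counts, with 12369 against 703 for Ighm. The part of these cell types in the changes of the members was not tested. Ribosomal RNA genes held 0.4 to 1.03% of counts in Mut and 1.74 to 2.49% in WT, and 9 members were called with those genes left out as well. In bulk RNA, fewer cells of a type and less RNA per cell cannot be told apart.

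**Figure D2:**
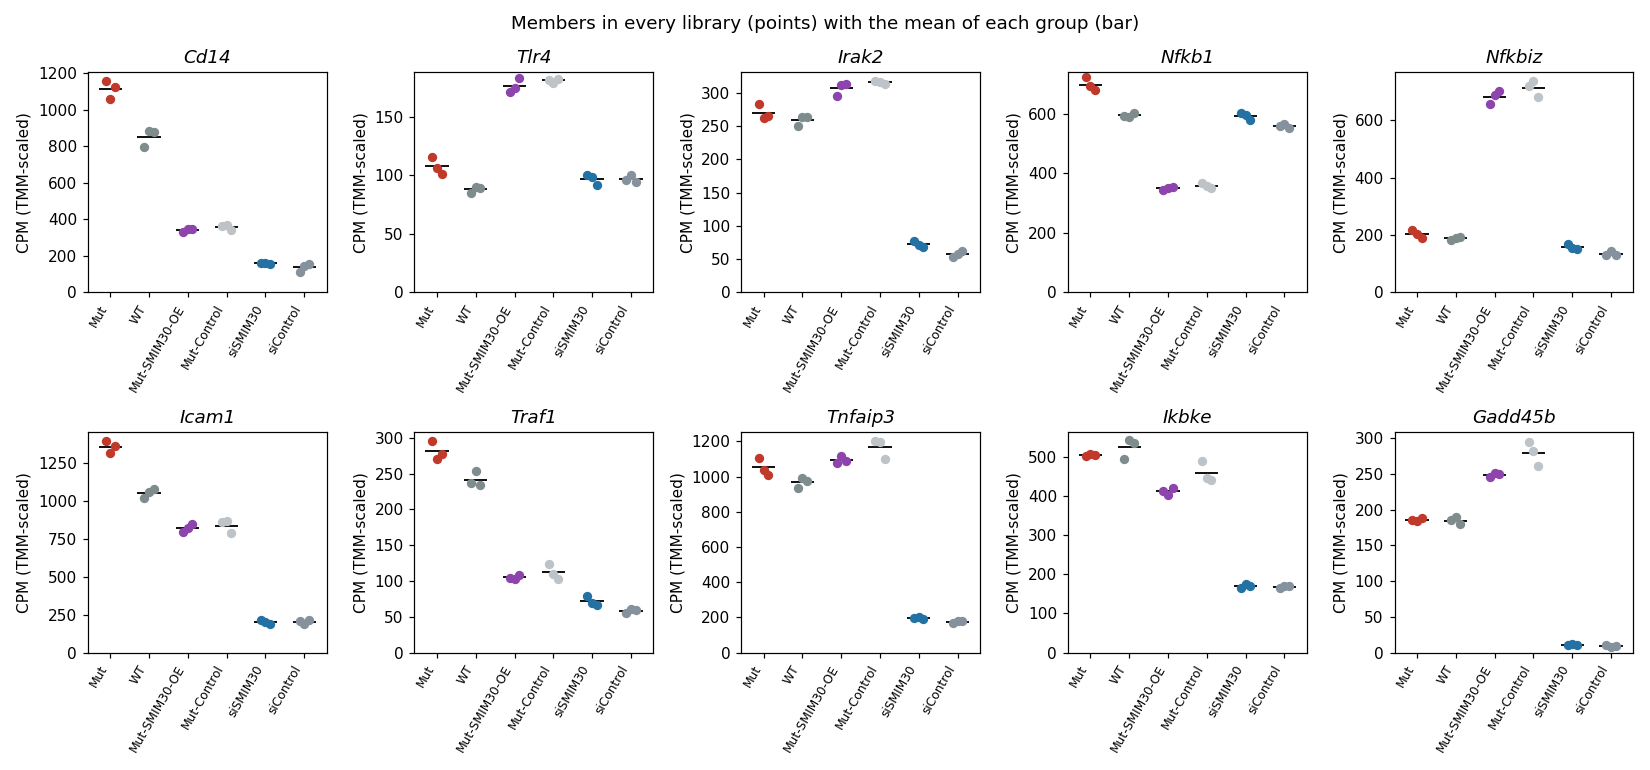
CPM of 10 members in every library (points) with group means (bars), linear axes from 0. Cd14 and Icam1 are higher in all Mut libraries than in all WT libraries, and in Gadd45b the Mut-SMIM30-OE libraries lie below the Mut-Control libraries. The IC-21 groups are lowest for every plotted gene but Tlr4 and Nfkb1, with 9.31 CPM of Gadd45b in siControl and 185 CPM in WT.

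Mut-SMIM30-OE was set against Mut-Control to ask what adding Smim30 by virus does in mutant macrophages. Only NF-kB-class members passed, all 3 of them lower with the Smim30 virus and by at most 10.8%: Gadd45b, Ikbke and Tnfaip2. Of 50 members 0 rose and 3 fell, where 1.43% of 12701 genes passed (0.583% higher, 0.842% lower). By edgeR 2 members were higher and 11 lower at an unadjusted p under 0.05, which 1332 of 12701 genes had in either direction. By DESeq2 and limma-voom 0 members rose while 1 and 2 fell. None of the 27 receptor-to-kinase members passed by any of these tools, and at an unadjusted p under 0.05 there was 1 higher and 1 lower. The median log2 fold change was -0.04 over the members, -0.03 in the receptor-to-kinase class, -0.09 in the NF-kB class and 0.00 over all genes.

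Gadd45b (ENSMUSG00000015312.9, chr10:80930073-80932204, plus strand), a stress gene induced by NF-kB, measured 246, 251 and 250.4 CPM in Mut-SMIM30-OE and 294, 281 and 261 CPM in Mut-Control. It fell by 0.17 on the log2 scale (SE 0.04, adjusted p = 0.00386). Ikbke (ENSMUSG00000042349.13, chr1:131254343-131279606, minus strand), an inducible relative of the IKK kinases, measured 413, 403 and 421 CPM in Mut-SMIM30-OE and 490.2, 446 and 442 CPM in Mut-Control and fell by 0.16 (SE 0.03, adjusted p = 0.00217). Tnfaip2 measured 2948, 3009 and 3036 CPM in Mut-SMIM30-OE and 3350.4, 3229.9 and 3047 CPM in Mut-Control and fell by 0.10 (SE 0.03, adjusted p = 0.0411). The groups did not overlap in these genes, but Mut-Control replicate 3 stood closest to the Mut-SMIM30-OE libraries in each of them.

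The receptor complex was close to its control: Tlr4 averaged 177 ± 6.29 CPM in Mut-SMIM30-OE and 181 ± 1.58 CPM in Mut-Control (SD, n = 3 each). Cd14 averaged 341 ± 9.87 CPM in Mut-SMIM30-OE and 358 ± 15.1 CPM in Mut-Control, and Ly96 averaged 21.7 ± 2.17 CPM in Mut-SMIM30-OE and 20.6 ± 0.138 CPM in Mut-Control. None passed, and the 95% intervals of the log2 fold change were -0.11 to 0.04 for Tlr4 and -0.13 to -0.01 for Cd14. Myd88, Ticam1, Irak1 and Irak3 had log2 fold changes of -0.02, -0.07, -0.05 and -0.01, and Traf6 one of 0.10 (adjusted p = 0.457). Nfkb1 was at -0.04, Rela at -0.09, Nfkbia at -0.06 and Tnfaip3 at -0.09 (adjusted p = 0.0673 for Tnfaip3). The largest differences that did not pass were those of the IkB family genes Nfkbid (-0.18, adjusted p = 0.573) and Bcl3 (-0.10, adjusted p = 0.305) and of Tnip3 (0.10, adjusted p = 0.258). Of the 50 members, 8 had a positive fold change, against 6363 of 12701 genes. In 1 member the Mut-SMIM30-OE libraries lay wholly above Mut-Control and in 10 wholly below, where 7.57% and 7.50% of all genes did so.

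The count rested on single libraries. Without Mut-Control replicate 1 it was 0 members, without Mut-SMIM30-OE replicate 2 or replicate 3 it was 1, and without Mut-Control replicate 3 it was 10, with Cd14, Nfkbia, Nfkbid, Nfkbiz, Tnfaip3, Tnip1 and Traf1 lower as well. The call of Tnfaip2 was lost in 9 settings (adjusted p of 0.0779 to 0.491), and those of Ikbke and Gadd45b in 3 each. In this comparison 6 of 7 tested fibroblast and mesothelial markers fell (median log2 fold change -1.08; the list added up to 60.4 to 69.7 CPM in Mut-SMIM30-OE, with Msln and Krt19 at 0, and to 109 to 132 CPM in Mut-Control). Their part in the changes of the members was not tested.

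siSMIM30 was set against siControl to ask what a lower Smim30 level does in the IC-21 line. Members that rose were mostly of the NF-kB class: Irak2, Traf1, Nfkbiz, Rel, Tnfaip3 and Nfkbia were 1.10-fold to 1.25-fold higher in siSMIM30, and no member fell. Of 50 members 6 rose and 0 fell, where 3.48% of 13576 genes passed (2.39% higher, 1.09% lower). At an unadjusted p under 0.05, 13 were higher and 0 lower, where 1927 of 13576 genes had such a p in either direction. DESeq2 and limma-voom called 6 and 7 members higher and 0 lower. Of the 27 receptor-to-kinase members 1 rose, and of the 23 NF-kB members 5 rose. Median log2 fold changes were 0.05 over the members, 0.02 in the receptor-to-kinase class, 0.08 in the NF-kB class and 0.00 over all genes.

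Irak2 (ENSMUSG00000060477.14, chr6:113638467-113695026, plus strand), the IRAK kinase that sustains the late response, measured 76.9, 71.9 and 68.3 CPM in siSMIM30 and 53.4, 57.2 and 61.9 CPM in siControl. All siSMIM30 libraries were higher, and it rose 1.25-fold (log2 0.32 ± 0.06 SE, adjusted p = 4.24e-05). Traf1 (ENSMUSG00000026875.14, chr2:34941750-34961772, minus strand) measured 79.3, 69.3 and 66.0 CPM in siSMIM30 and 55.2, 61.1 and 59.4 CPM in siControl. It rose 1.21-fold without overlap (log2 0.28 ± 0.06 SE, adjusted p = 0.000822).

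In the IkB family, 2 of 6 members rose. Nfkbiz (ENSMUSG00000035356.17, chr16:55811375-55838899, minus strand), whose product IkB-zeta is a nuclear cofactor for secondary response genes, measured 169, 153 and 150.4 CPM in siSMIM30 and 131, 142 and 130.0 CPM in siControl (1.16-fold, adjusted p = 0.000374). Nfkbia measured 285, 263 and 272 CPM in siSMIM30 and 236, 248 and 258 CPM in siControl (1.10-fold, adjusted p = 0.01). Neither gene had overlapping libraries. Rel, which encodes the c-Rel subunit, measured 129, 134 and 127 CPM in siSMIM30 against 118, 109 and 116 CPM in siControl (1.14-fold, adjusted p = 0.00315). Tnfaip3 measured 193, 200.1 and 191 CPM in siSMIM30 against 165, 179 and 177 CPM in siControl (1.12-fold, adjusted p = 0.00388). Of the members that rose here, Nfkbia, Tnfaip3 and Rel had kB consensus matches in their promoters. Traf1 and Irak2 had a match to neither motif, and Nfkbiz had no promoter sequence.

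No gene of the receptor complex passed, also not at an unadjusted p under 0.05 or by DESeq2 or limma-voom. Tlr4 averaged 96.9 ± 4.43 CPM in siSMIM30 and 96.9 ± 3.24 CPM in siControl, with a 95% interval of -0.10 to 0.08 on the log2 scale. Cd14 averaged 159.8 ± 2.85 CPM in siSMIM30 and 136 ± 21.9 CPM in siControl (SD, n = 3 each; log2 0.22, adjusted p = 0.573), and siControl replicate 1, at 111 CPM, lay far below the other libraries. Ly96 was low in both, at 3.78 ± 0.768 CPM in siSMIM30 and 4.07 ± 0.877 CPM in siControl. Myd88, Ticam1, Irak1, Irak3 and Traf6 had log2 fold changes of 0.12, 0.10, 0.01, 0.10 and 0.06, and Nfkb1 and Rela of 0.08 and 0.07. Beside Cd14, the largest differences that did not pass were those of Bcl3 (0.27, adjusted p = 0.119), Gadd45b (0.26, adjusted p = 0.35) and Tnip3 (0.17, adjusted p = 0.399). A positive fold change was found for 37 of 50 members and for 6683 of 13576 genes. Of the members, 12 had siSMIM30 libraries wholly above and 0 wholly below those of siControl, where 10.4% and 8.43% of all genes did so.

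Irf5, Nfkb1, Bcl3 and Sod2 each passed in at least 1 other setting only (adjusted p of 0.00391 to 0.047). The calls of Irak2, Nfkbiz and Tnfaip3 held in all settings. That of Nfkbia was lost in 4 (adjusted p of 0.0618 to 0.134), that of Rel without siControl replicate 2 (adjusted p = 0.109) and that of Traf1 without siSMIM30 replicate 1 (adjusted p = 0.0578). Fibroblast and mesothelial markers added up to 0.249 to 0.702 CPM in siSMIM30 and 0.181 to 0.250 CPM in siControl, with Sparc, Pdgfra and Dcn at 0 in both. Without a composition factor in the scaling, 54.3% of all calls were on the higher side, against 68.6% with TMM, and 6 members were called either way.

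**Figure D3:**
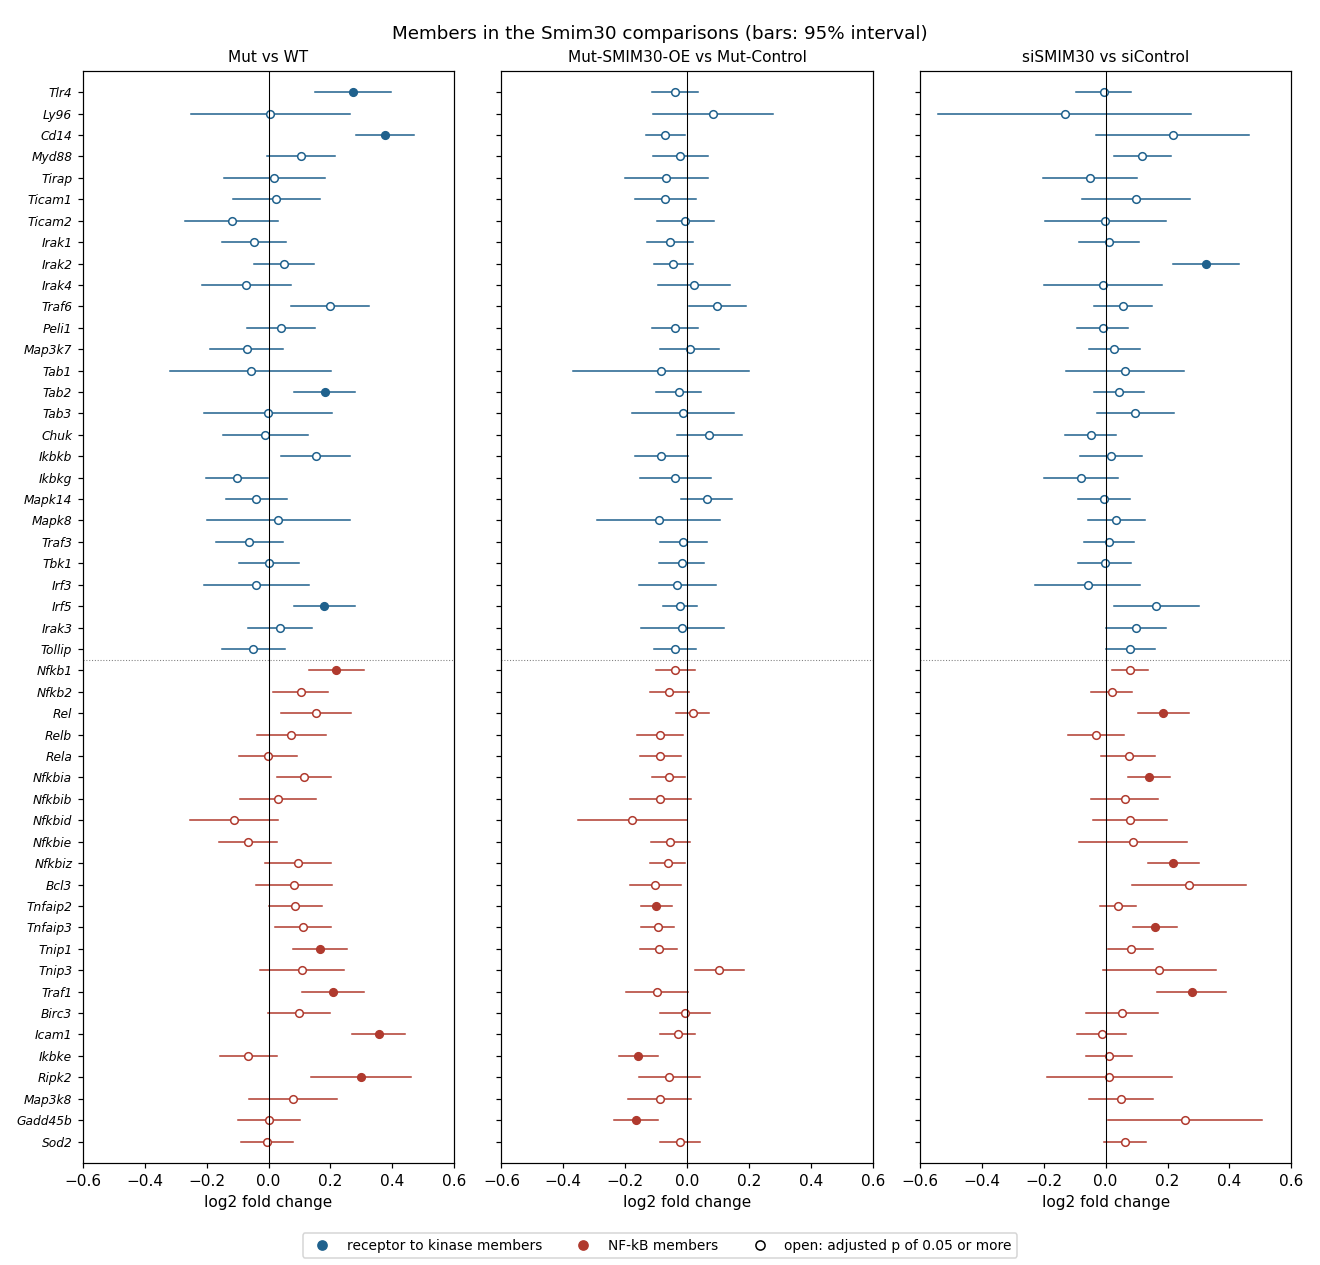
Log2 fold change of each member (points) with its 95% interval (1.96 SE) in the 3 Smim30 comparisons; filled points passed an adjusted p under 0.05. Filled points lie right of 0 in Mut vs WT (9) and siSMIM30 vs siControl (6) and left of 0 in Mut-SMIM30-OE vs Mut-Control (3), and no interval reaches past 0.54 on either side.

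Across these comparisons, which share no library, 17 of 50 members passed in at least 1, where 10.3% of the 11191 genes tested in all of them did. In these main fits Traf1 alone of the members passed in 2, higher in Mut and higher in siSMIM30, where 1.13% of those genes passed in at least 2. The other 33 members passed in none. This overlap depended on the setting. Rel also passed in both Mut vs WT and siSMIM30 vs siControl with all 18 libraries in 1 edgeR fit (adjusted p = 0.0163 in Mut vs WT). With limma-voom, Nfkb1 did so too (adjusted p = 0.0466 in siSMIM30 vs siControl). For all 50 members the 95% interval lay within a 1.5-fold change in each of the comparisons, with a median SE of 0.055, 0.0395 and 0.0485 on the log2 scale in Mut vs WT, Mut-SMIM30-OE vs Mut-Control and siSMIM30 vs siControl. Which members passed differed between the mutant and the siRNA, and this difference was tested as an interaction in a model of the 4 groups. It passed for 3 members, 2 with a positive and 1 with a negative difference, where 2.51% of 14804 genes passed (1.25% positive, 1.26% negative). Icam1 rose in Mut and was at -0.01 with siSMIM30 (difference 0.37 ± 0.07 SE, adjusted p = 0.000349). Tlr4 rose in Mut and was at -0.01 with siSMIM30 (difference 0.28 ± 0.08 SE, adjusted p = 0.0365). Irak2 was at 0.05 in Mut and rose with siSMIM30 (difference -0.27 ± 0.07 SE, adjusted p = 0.0321). The calls of Tlr4 and Irak2 were lost in 12 and 8 settings, and that of Icam1 in none.

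The class medians differed by less than 0.1 on the log2 scale in each of these comparisons. The NF-kB median minus the receptor-to-kinase median was 0.09 in Mut vs WT, -0.06 in Mut-SMIM30-OE vs Mut-Control and 0.06 in siSMIM30 vs siControl. Taken per library against the mean of the control group, this difference was 0.06, 0.10 and 0.07 in Mut and 0.01, 0.05 and -0.03 in WT. It was -0.06, -0.04 and -0.02 in Mut-SMIM30-OE and 0.04, 0.01 and -0.05 in Mut-Control, and 0.04, 0.05 and 0.05 in siSMIM30 and -0.03, 0.02 and 0.04 in siControl. The libraries were narrowly apart between Mut (lowest 0.059) and WT (highest 0.049), where the SD between libraries was 0.0317. They were barely apart between siSMIM30 (lowest 0.044) and siControl (highest 0.042), and overlapped between Mut-SMIM30-OE and Mut-Control through Mut-Control replicate 3.

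Other genes of the LPS and NF-kB pathway, 58 in all, were set beside the members, and 53 could be tested in each comparison. In Mut vs WT 2 of 53 rose and 2 fell, where 6.30% of all genes passed, and 18 of 53 had an unadjusted p under 0.05, against 2246 of 12500 genes. Tlr8, an endosomal RNA sensor, rose by 0.26 on the log2 scale and Tank, a TBK1 scaffold, rose 1.17-fold, while the lipid phosphatase Inpp5d fell by 0.28 and the RNA sensor Tlr13 by 0.16 on the log2 scale. In Mut-SMIM30-OE vs Mut-Control 0 rose and 1 fell, where 1.43% of all genes passed: the linear ubiquitin ligase Rnf31 (log2 -0.22, adjusted p = 0.0298). In siSMIM30 vs siControl 1 rose and 1 fell, where 3.48% of all genes passed: Zc3h12a, a ribonuclease that degrades cytokine mRNAs, rose 1.18-fold (adjusted p = 0.000665) and Unc93b1, a chaperone of endosomal TLRs, fell by 0.14 (adjusted p = 0.0114).

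Fold changes of the members were larger between the cultures. Mut-Control was set against Mut, groups that share the mutation and differ in the virus, in time in culture and in the part of the series they belong to, which cannot be told apart. Of 50 members 22 rose and 19 fell, where 53.6% of 12798 genes passed (27.1% higher, 26.5% lower). In Mut-Control the inhibitor Irak3, Sod2, Cd14 and the IKK scaffold Ikbkg were far lower, and the nuclear IkB gene Nfkbiz and the subunit Rel were far higher. The Mut-Control libraries lay wholly above those of Mut in 23 members and wholly below in 18, where 59.2% of all genes did not overlap (30.9% above, 28.3% below). The Mut libraries also serve in Mut vs WT.

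Nfkbiz measured 718, 739 and 682 CPM in Mut-Control against 218, 203 and 189.6 CPM in Mut, a 3.49-fold rise (log2 1.80 ± 0.05 SE). Rel measured 580.3, 582 and 585 CPM in Mut-Control and 282, 257 and 236 CPM in Mut (log2 1.17). Other members of the IkB family rose too, Nfkbid by 0.86, Bcl3 by 0.57, Nfkbia by 0.41 and Nfkbie by 0.14, while Nfkbib fell by 0.34. The subunits with processed precursors went the other way: Nfkb1 measured 366, 357 and 349.5 CPM in Mut-Control against 721, 692 and 679 CPM in Mut (log2 -0.97). Nfkb2 measured 396, 378 and 355 CPM in Mut-Control against 835, 781 and 799 CPM in Mut (0.465-fold, adjusted p = 6.65e-20). Relb rose by 0.25 and Rela, at 0.01, did not pass.

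Irak3 (ENSMUSG00000020227.10, chr10:120141648-120202130, minus strand) measured 49.6, 51.0 and 49.1 CPM in Mut-Control and 232, 222 and 204 CPM in Mut and fell by 2.14 on the log2 scale. Sod2, the mitochondrial superoxide dismutase, measured 353, 340.5 and 331 CPM in Mut-Control and 1289.5, 1301 and 1318 CPM in Mut (log2 -1.94). Cd14 measured 365, 368 and 341 CPM in Mut-Control, against the Mut values above (0.32-fold), while Tlr4 measured 182, 179 and 182 CPM in Mut-Control and rose 1.68-fold. So within the receptor complex Cd14 fell, Tlr4 rose and Ly96 did not pass (log2 0.15, adjusted p = 0.301). Ikbkg measured 64.7, 62.4 and 64.8 CPM in Mut-Control against 189, 179.7 and 182 CPM in Mut (log2 -1.53). Traf1 measured 124, 109 and 102 CPM in Mut-Control, against the Mut values above (log2 -1.33). The p38 kinase Mapk14 measured 132, 126 and 128 CPM in Mut-Control against 236, 224 and 249 CPM in Mut (log2 -0.89). The groups did not overlap in these genes, Ly96 excepted.

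Among the adaptors Ticam1 and Ticam2 of the TRIF arm rose (0.47 and 0.50) and Myd88 fell by 0.43. Irf5 rose by 0.71, Traf3 by 0.29, Irak1 by 0.21, Irak2 by 0.22, Irak4 by 0.22 and Tollip by 0.16, and Tab1, Tab2, Tbk1, Ikbkb and Peli1 fell by 0.55, 0.36, 0.24, 0.18 and 0.14. Of the feedback and target genes 6 rose (Tnip3, Gadd45b, Ripk2, Tnfaip2, Map3k8 and Tnfaip3, by 0.61 to 0.14) and 6 fell (Sod2, Traf1, Icam1, Birc3, Tnip1 and Ikbke, the last by 0.15). Traf6 did not pass (log2 -0.09, adjusted p = 0.199), nor did Tirap, Map3k7, Tab3, Chuk, Mapk8 and Irf3. The calls of Peli1, Irak4, Nfkbie and Tnfaip3 were lost in some settings, and the other 37 held in all. All 7 tested fibroblast and mesothelial markers fell in Mut-Control too, adding up to 109 to 132 CPM there and to 314 to 347 CPM in Mut, with none at 0 in either group. Other lists moved as well: large peritoneal macrophage markers (4 of 8 lower, 1 higher) added up to 1164 to 1169 CPM in Mut-Control and 2589 to 2775 CPM in Mut, and dendritic cell markers (2 of 3 lower) to 8.01 to 8.12 CPM in Mut-Control and 29.3 to 37.2 CPM in Mut. Of 3 tested B cell markers 2 fell and 1 rose (median log2 fold change -2.65). The B cell list added up to 98.3 to 112 CPM in Mut-Control and 74.0 to 77.1 CPM in Mut. That sum rests mostly on Cd22, with 12369 counts over the 18 libraries against 703 for Ighm. Neutrophil markers added up to 2.15 to 3.40 CPM in Mut-Control and 7.03 to 11.4 CPM in Mut. Of 8 macrophage markers 3 rose and 3 fell. Their part in the changes of the members was not tested.

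The IC-21 line with control siRNA was set against WT macrophages to show where this cell line stands in the pathway; transfection and the part of the series cannot be told apart from the kind of cell. Most of the pathway was lower in IC-21: of 50 members 42 fell and 6 rose, where 80.3% of 14066 genes passed (40.1% higher, 40.2% lower). In edgeR's test all NF-kB members but Nfkb1 and Map3k8 fell (21 of 23), and the members that rose were Tlr4, Map3k7 (TAK1), its partners Tab1 and Tab3, the IKK subunit Chuk, and Mapk8. The member median was -1.18 on the log2 scale, with -0.99 in the receptor-to-kinase class, -1.56 in the NF-kB class and 0.01 over all genes. The siControl libraries lay wholly above those of WT in 6 members and wholly below in 43, where 81.2% of all genes did not overlap (39.9% above, 41.3% below). The WT libraries also serve in Mut vs WT, and the siControl libraries in the siRNA comparison.

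Gadd45b measured 9.96, 8.39 and 9.59 CPM in siControl against 185, 189 and 179.8 CPM in WT, 19.8-fold lower. Nfkbie (ENSMUSG00000023947.8, chr17:45555703-45563169, plus strand), which encodes IkB-epsilon, measured 21.998, 19.9 and 23.3 CPM in siControl and 332, 345 and 336 CPM in WT, 15.5-fold lower. These were the members with the largest falls. Irf5 measured 44.0, 36.9 and 37.1 CPM in siControl against 241, 261 and 265 CPM in WT (log2 -2.70), and Tnfaip3 and Icam1 fell by 2.46 and 2.37. Tnfaip3 had the siControl values given above against 935, 993 and 977 CPM in WT. Icam1 measured 205, 190.5 and 211 CPM in siControl, against the WT values given for it in Mut vs WT. No IC-21 library reached a WT library in these genes.

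At the receptor, Cd14 measured 111, 144 and 153 CPM in siControl, against the WT values above (log2 -2.62, adjusted p = 1.67e-05). Ly96 measured 3.74, 5.07 and 3.42 CPM in siControl and 19.4, 16.3 and 18.7 CPM in WT (log2 -2.10). Tlr4, in contrast, measured 95.8, 101 and 94.5 CPM in siControl against 84.7, 90.4 and 89.6 CPM in WT and rose by 0.16, a call lost with DESeq2 and without WT replicate 1 or siControl replicate 2 (adjusted p up to 0.102). Ticam2 measured 19.0, 18.8 and 16.6 CPM in siControl against 74.7, 74.5 and 82.0 CPM in WT (log2 -2.07), although 14.5% of its counted exon bases are shared with Tmed7 on the same strand. Irak2 measured 53.4, 57.2 and 61.9 CPM in siControl against 249.9, 263 and 264 CPM in WT and fell by 2.15.

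Mapk8 (ENSMUSG00000021936.14, chr14:33377898-33447158, minus strand) was the member that rose most: it measured 79.4, 78.3 and 77.8 CPM in siControl and 20.1, 20.4 and 18.2 CPM in WT (4.07-fold). Tab3, Chuk, Map3k7 and Tab1 rose by 0.82, 0.70, 0.40 and 0.26, and the call of Tab1 was lost in 9 settings. Ticam1 fell by 1.42, Irak1 by 1.09, Myd88 by 0.81 and Traf6 by 0.30, and among the inhibitors Irak3 fell by 1.40 and Tollip by 0.65. Rela fell by 1.49 and Nfkbia by 1.18 (0.44-fold), whereas Nfkb1 measured 558, 566 and 552 CPM in siControl against 592, 589.8 and 604 CPM in WT, 0.949-fold, and did not pass (adjusted p = 0.102). Nfkb1 was called lower with DESeq2 (adjusted p = 0.0389), limma-voom (0.0481), all 18 libraries in 1 fit (0.00569) and without WT replicate 1 (0.0248), so that 22 of 23 NF-kB members were lower by DESeq2 and by limma-voom. The remaining members that fell lay between -0.17 (Peli1) and -2.02 (Tnip3) on the log2 scale.

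These directions depend on the scaling more than those of any other comparison described here. Without a composition factor the median of all genes was 0.72 on the log2 scale, against 0.01 with TMM, and 75.2% of calls were on the higher side, against 5645 of 11299 calls with TMM. Then 10 members turned positive (Tirap, Traf6, Peli1, Tab2, Traf3, Tollip, Nfkb1, Relb, Nfkbid and Nfkbiz), at 0.03 to 0.63, which is below that shifted median for each of them. Macrophage markers added up to 2072 to 2176 CPM in siControl and 12837.5 to 14122.5 CPM in WT, and all 7 tested fibroblast and mesothelial markers were lower (0.181 to 0.250 CPM in siControl, 322 to 356 CPM in WT). Of 9 tested large peritoneal macrophage markers 7 were lower and 1 was higher. The part of these cell types was not tested.

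**Figure D4:**
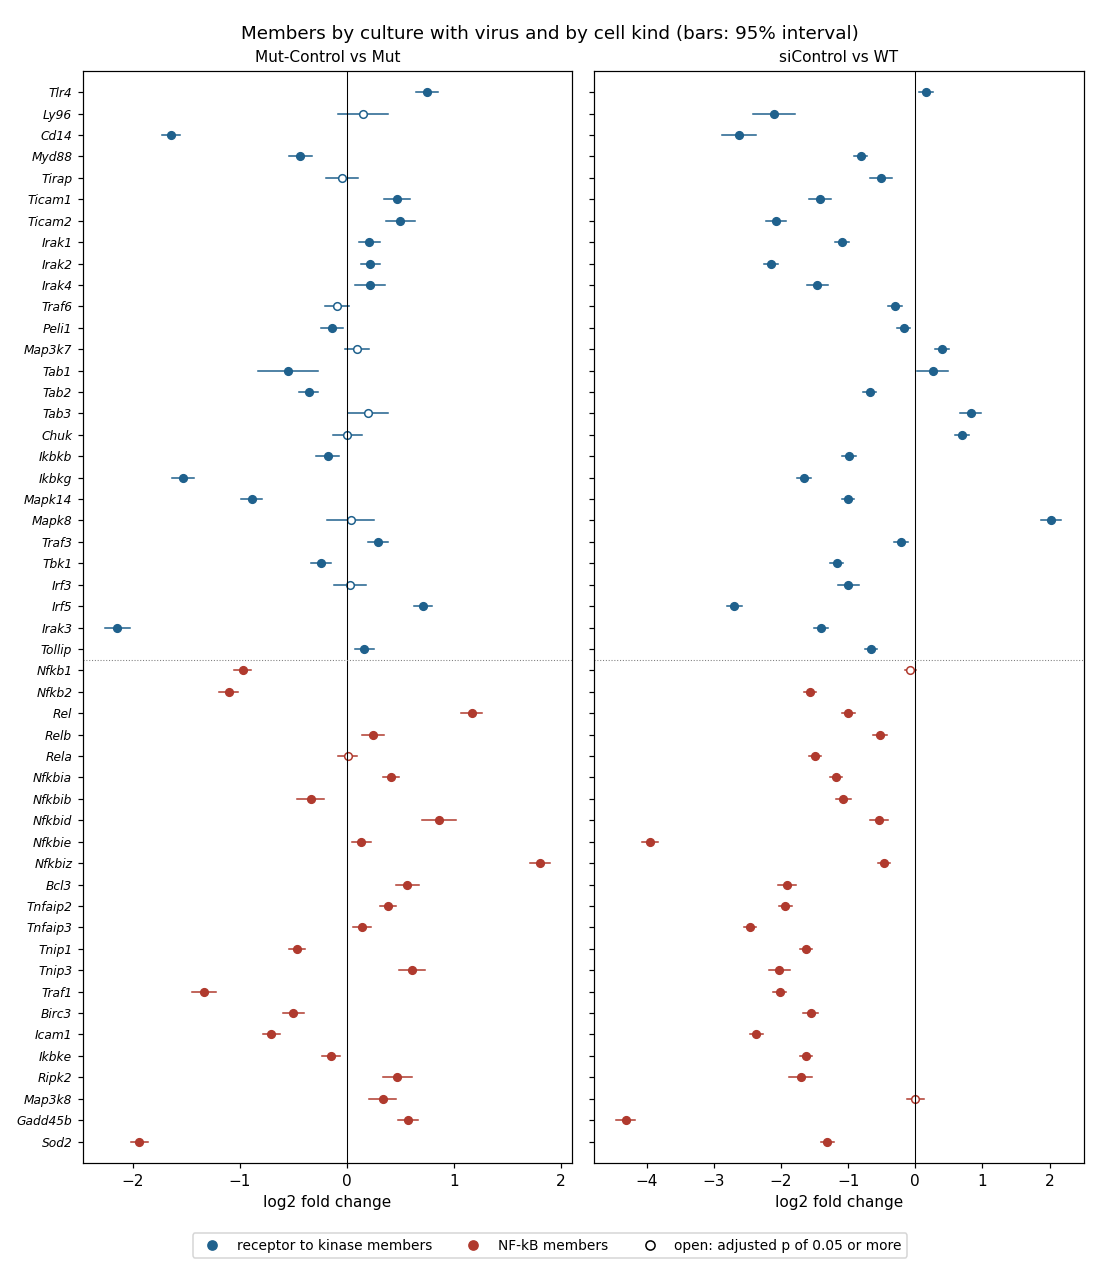
Log2 fold change of each member (points) with its 95% interval for Mut-Control vs Mut and siControl vs WT; filled points passed an adjusted p under 0.05. Members lie on both sides of 0 in the first panel (22 right, 19 left) and mostly left of 0 in the second (6 right, 42 left), with Gadd45b at -4.31 and Mapk8 at 2.02.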

How the data were processed

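RNA was sequenced in 18 libraries, grouped by their titles into 6 groups of 3. The authors deposited raw counts per gene: featureCounts 2.0.3 counted read pairs in exons with its reverse-strand setting and the GENCODE M25 annotation, per the file headers. The submitters' processing notes name fastp, FastQC and HISAT2 before it. The library number in each file's header differed from that in its name, and the series' own file record set the sample. Symbols were matched by gene identifier for 55141 of 55401 identifiers, and coordinates came with the deposited counts (GENCODE M25, GRCm38). GENCODE M21 served only for gene types, used to mark ribosomal RNA genes. General knowledge, not the files, equates Smim30 with 2610001J05Rik.

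For every comparison the 2 groups' libraries entered an edgeR fit (version 4.0.16, R 4.3.3) with filterByExpr, TMM scaling and the robust quasi-likelihood F test, and p-values were adjusted by Benjamini-Hochberg over all genes tested, at 0.05. The interaction used 12 libraries. Intervals are the log2 fold change ± 1.96 SE. CPM and FPKM were computed here from the deposited counts. Alternatives were RLE factors, no composition factor, no count filter, a filter of 1 CPM in 3 libraries, ribosomal RNA genes left out, DESeq2 1.42.0, limma-voom (limma 3.58.1), all 18 libraries in 1 fit, a replicate block, and omission of single libraries. The fits of the 3 Smim30 comparisons and of the interaction were run on simulated data with 1.5-fold and 2-fold changes in either direction. Recovery of the smaller changes called among the members there was not tested. An exact permutation test of 3 against 3 libraries cannot go below p = 0.1, so none was used. Within each group, libraries differed beyond sampling noise (chi-square per gene of at least 1.67). No counts fell on mitochondrial genes. Floors cover counting error only.

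The members and the marker and pathway lists were chosen with earlier results of these data known. The genes named were 12 core members (Tlr4, Ly96, Cd14, Myd88, Ticam1, Irak1, Irak3, Traf6, Nfkb1, Rela, Nfkbia and Tnfaip3), Smim30, every member called, up to 4 uncalled members with the largest change, and up to 5 called pathway genes per comparison.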

Additional observations from a re-analysis of the deposited data

Results flagged for a closer look

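The effects of the mutation and of the siRNA differed for 3 of 50 members by edgeR's interaction test, which 2.51% of 14804 genes passed, with each difference given as Mut vs WT minus siSMIM30 vs siControl on the log2 scale. Icam1 differed by 0.37 (adjusted p = 0.000349), with log2 fold changes of 0.36 in Mut and -0.01 in siSMIM30 (higher in 3 of 3 Mut libraries than in any WT library). Tlr4 differed by 0.28 (adjusted p = 0.0365), with log2 fold changes of 0.27 in Mut and -0.01 in siSMIM30. Irak2 differed by -0.27 (adjusted p = 0.0321), with 0.05 in Mut and 0.32 in siSMIM30. The calls of Tlr4 and Irak2 were lost in 12 and 8 of 21 alternative settings, with adjusted p up to 0.172 and 0.13, and that of Icam1 in none. The comparisons also differ in the kind of cell and in how Smim30 was altered, which cannot be told apart.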

How the results depend on the processing

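No called member changed sign under an alternative in any comparison but siControl vs WT, while uncalled members near 0 did (15 in Mut vs WT, 9 in Mut-SMIM30-OE vs Mut-Control, 18 in siSMIM30 vs siControl, 5 in Mut-Control vs Mut and 18 in the interaction). In siControl vs WT without a composition factor, the log2 values turned to 0.191 for Tirap, 0.404 for Traf6, 0.536 for Peli1, 0.026 for Tab2, 0.494 for Traf3, 0.052 for Tollip, 0.631 for Nfkb1, 0.181 for Relb, 0.161 for Nfkbid and 0.239 for Nfkbiz. With all 18 libraries in 1 fit, 1198 genes were called in Mut vs WT (788 as reported), 87 in Mut-SMIM30-OE vs Mut-Control (181) and 263 in siSMIM30 vs siControl (472). DESeq2 called 68 and 291 in these last comparisons. Either setting left 1 member in Mut-SMIM30-OE vs Mut-Control (3 as reported), and the interaction had 1 member without a filter and 1 with limma-voom (3 as reported). The causes were not tested. Without a composition factor 61.7% of the interaction's calls were positive, against 49.7% with TMM.

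With single libraries left out, Mut vs WT had 469 to 957 genes and 5 to 12 members, Mut-SMIM30-OE vs Mut-Control 66 to 453 genes and 0 to 10 members, and siSMIM30 vs siControl 309 to 422 genes and 4 to 7 members. Mut-Control vs Mut had 6274 to 6666 genes and 38 to 41 members, siControl vs WT 11074 to 11438 genes and 47 to 48 members, and the interaction 267 to 571 genes and 1 to 3 members. The gene counts moved by over 1.5 times without Mut replicate 2 (469 in Mut vs WT), siControl replicate 2 (309) or Mut replicate 3 (571 in the interaction). In Mut-SMIM30-OE vs Mut-Control they did so without Mut-Control replicate 1 (82) or 3 (453), or Mut-SMIM30-OE replicate 2 (106) or 3 (66). The interaction kept 1 member without WT replicate 2, Mut replicate 2, siControl replicate 2 or siSMIM30 replicate 1. The difference of class medians was 0.058 to 0.121 in Mut vs WT (lowest without WT replicate 3), -0.067 to -0.033 in Mut-SMIM30-OE vs Mut-Control (nearest to 0 without Mut-Control replicate 2, and -0.034 without replicate 1) and 0.022 to 0.082 in siSMIM30 vs siControl (lowest without siControl replicate 1).

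Equal replicate numbers did not pair the libraries: their deviations correlated at -0.0817 to 0.0642, and the correlation was highest between equal numbers for every number in siSMIM30 vs siControl alone. The replicate block gave 782 genes and 9 members in Mut vs WT, 253 and 4 in Mut-SMIM30-OE vs Mut-Control, 546 and 7 in siSMIM30 vs siControl, 6688 and 41 in Mut-Control vs Mut, 11191 and 48 in siControl vs WT, and 415 and 3 in the interaction. Depth limits Ly96 most, with a lowest count of 30 and an SE of 0.208 in siSMIM30 vs siControl.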
